A study of Mus musculus with 2 samples.

Results

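The genes described here build ribosomes in the nucleolus: RNA polymerase I with its factors, and the proteins that fold, modify, cut and assemble ribosomal RNA. A list of 48 gene symbols was matched exactly to the symbol column of the deposited table, and 47 were matched among 23988 genes, while Noc2l was not analysed here. The samples were untransformed mouse myeloid progenitors of strain C57BL/6: lineage-depleted bone marrow cells kept for 7 days in interleukin 3, stem cell factor and interleukin 6, with no other treatment, no transgene named in the labels and no second condition. The labels give 1 group of 2 RNA-seq libraries, named replicate 1 and replicate 2 below, and do not say whether they came from separate mice or cultures. Leukaemia cells with HOXA9 and MEIS1, which the series title names, were not analysed here. The list was proposed with results of these libraries in view, the difference between them included, so the counts and ratios below describe the chosen genes and support nothing further. With 2 libraries the smallest p of an exact two-sided permutation test by sign is 0.5, so none is given.

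RNA polymerase I transcribes the long precursor of ribosomal RNA from repeated gene copies in the nucleolus. Small nucleolar RNA-protein particles (snoRNPs) guide its methylation and pseudouridylation, the small subunit processome folds and cuts it toward the 40S subunit, and a separate set of helicases, GTPases and scaffold proteins matures the 60S subunit. In growing blood progenitors this programme accompanies cell division, and the transcription factor MYC is a known activator of many of its genes.

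The promoters of the members were searched for 4 short motifs, on both strands. RefSeq windows of 300 bases (250 before the start to 50 after it, assembly GRCm38.p6, which is not the mm9 build the authors used) were matched by symbol for 42 of 47 members, with 50 windows in all. No entry was matched for Bop1, Fbl, Npm1, Rrp12 or Rrs1. The E-box CACGTG, the sequence that MYC and its partner MAX bind, was in 8 of 50 member windows (16%), against 7.15% of all 32851 windows and 10.3% of those of detected genes. Here and below, detected genes are the 10896 whose RPKM averaged 1 or more over both libraries. CCGGAAGT, a site of the ETS family, was in 11 member windows (22%), against 3.89% and 8.47%. TCTCGCGA was in 4 (8%), against 0.995% and 2.28%, and CGCATGCG, a core of the NRF1 site, in 1 (2%), against 1.87% and 4.11%. No match of one motif shared a base with a match of another. With only the bases before the start counted, CACGTG was in 3 of the 50 windows (6%), against 6.02% of all windows, and CCGGAAGT in 6 (12%), against 2.88%. TCTCGCGA was in 3 (6%) there, against 0.858%, and CGCATGCG in 0, against 1.55%. The share before the start was not computed for detected genes, whose shares in whole windows were higher than those of all windows. A match is a run of letters and not a measured binding site.

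The stretches below show each CACGTG match of the members, 5′ to 3′ on the gene's strand with the motif in capitals, so that its place and its flanks can be compared.
Nop2: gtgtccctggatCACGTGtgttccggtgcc
Utp18: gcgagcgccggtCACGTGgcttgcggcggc
Rrn3, first: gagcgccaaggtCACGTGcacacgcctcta
Rrn3, second: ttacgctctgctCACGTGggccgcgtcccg
Pes1: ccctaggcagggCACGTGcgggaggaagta
Wdr43: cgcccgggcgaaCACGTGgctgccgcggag
Tsr1: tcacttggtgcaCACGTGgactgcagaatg
Ltv1: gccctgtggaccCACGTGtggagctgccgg
Utp20: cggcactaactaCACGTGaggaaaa
Counted from the start, the motif began at base -60 in Nop2, at -20 in Utp18, and at -215 and -48 in Rrn3. In Pes1, Wdr43, Tsr1, Ltv1 and Utp20 it lay after the start, at base 3, 18, 25, 29 and 38. Rrn3 encodes the factor that makes RNA polymerase I competent to start, and it was the member with 2 matches of CACGTG. Its 250 bases before the start (chr16:13780449-13780698, plus strand, GRCm38.p6, RefSeq) show both in capitals.
Rrn3 promoter: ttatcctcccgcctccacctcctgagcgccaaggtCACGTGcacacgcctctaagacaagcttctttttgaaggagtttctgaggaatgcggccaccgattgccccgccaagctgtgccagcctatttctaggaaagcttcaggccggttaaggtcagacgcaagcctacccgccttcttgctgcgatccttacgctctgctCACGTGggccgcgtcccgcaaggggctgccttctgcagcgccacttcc
The matches of TCTCGCGA, or of its reverse complement TCGCGAGA, lay in Nop58, Nop14, Tsr1 and Polr1c, and are shown in the same way.
Nop58: aaaaaaaaaagTCTCGCGAtattttaaggc
Nop14, first: acttgtgtactTCTCGCGAaatacgggaag
Nop14, second: tgacgcactcaTCGCGAGAcgaagctgggc
Tsr1: ggcaaaaaaccTCGCGAGAggtcgcggaag
Polr1c: gcggggcaagaTCTCGCGAcattcaagatt

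Values are RPKM, reads divided by gene length and by library size. From the steps between low RPKM values, replicate 1 had an effective size of 29941063 reads and replicate 2 one of 28793666, either of which may contain a scaling factor of the authors. At these sizes all 47 members gave whole reads in both libraries (tolerance 0.001 reads), the smallest number that fits being 352 reads, for Nhp2 in replicate 2. The myeloid markers were high in both libraries, Mpo (myeloperoxidase) at 1587 and 1164 RPKM and Elane (neutrophil elastase) at 1327 and 1087. The progenitor receptor gene Kit stood at 21.2 and 26.2 RPKM. Markers of B cells, T cells, red cells and stroma summed to at most 5.59 RPKM per list in either library, with Ms4a1, Pax5, Cd3e, Cd4, Hbb-b1, Hba-a1 and Cxcl12 listed at 0 in both.

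All 47 members were expressed at 1 RPKM or more in both libraries, where 43.5% of all genes in the table were. The members' medians were 30.3 RPKM (replicate 1) and 19.3 RPKM (replicate 2), against 13.4 and 13.2 over detected genes. Together they held 0.508% of the summed RPKM in replicate 1 and 0.351% in replicate 2, and Npm1 alone made up 37.9% and 38.1% of the members' sum. The range ran from Polr1b, at 4.92 and 3.63 RPKM, to Npm1, at 1182 and 823.

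**Figure D1:**
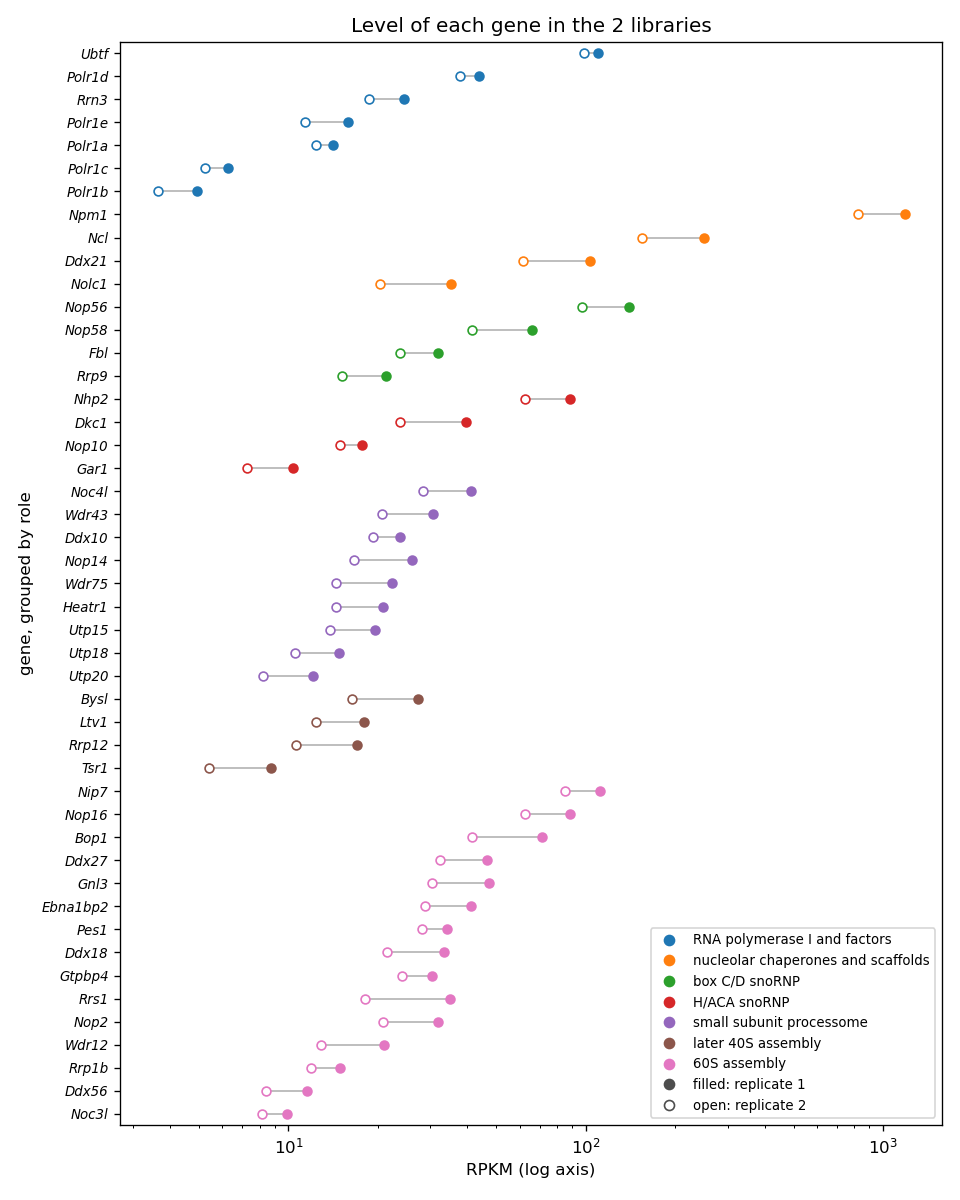
RPKM of each of the 47 genes (log axis) in replicate 1 (filled) and replicate 2 (open), grouped by role and ordered by mean within a role. Every open point lies to the left of its filled point, and Npm1, at 1182 and 823 RPKM, lies far to the right of the others.

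Every member was lower in replicate 2 than in replicate 1. The direction held for 47 of 47 members, against 55.9% of detected genes. The ratio is given as log2 of replicate 2 over replicate 1 with 1 RPKM added to both, a scale that understates differences of low genes. Its median over the members was -0.50, with a range from -0.15 (Ubtf) to -0.91 (Rrs1), while the median over detected genes was -0.05. All 47 members lay below that median, and 41 lay among the lowest 25% of these genes. At least 1.5-fold lower in replicate 2 were 16 members (34%), against 4.26% of detected genes, and no member was 1.5-fold higher, against 11.3%. No member reached a 2-fold difference, against 0.734% of detected genes lower and 5.3% higher by that much. Each side of this comparison is 1 library, so it has no replicate check, and genes of the same libraries are not replicates. With the median ratio of genes of like level subtracted, the median over members was -0.39 and 7 members passed 1.5-fold, against 3.28% of genes. With bins of GC content or of transcript length in place of level it was -0.44 in both, with 9 members past 1.5-fold in each case. The shares over the 10425 detected genes with a known GC content and length were 3.07% and 3.08%.

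**Figure D2:**
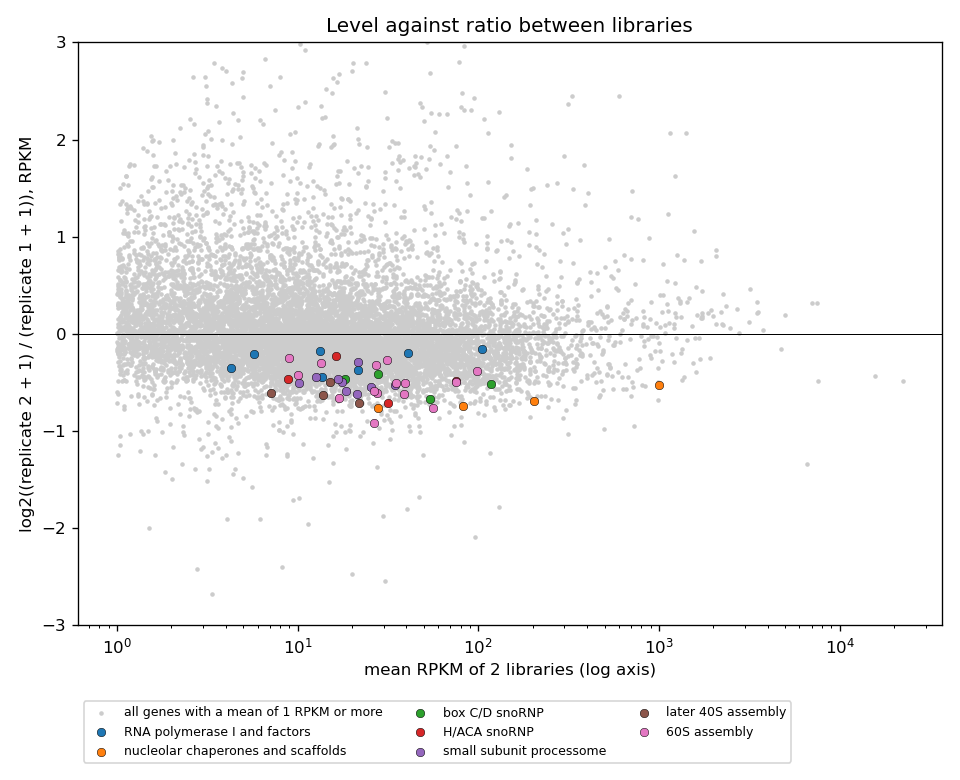
Mean RPKM of the 2 libraries (log axis) against the log2 ratio of replicate 2 over replicate 1 with 1 RPKM added, for all 10896 detected genes (grey; 29 lie outside the axis limits of -3 and 3) and the 47 members (coloured by role). All coloured points lie below 0, from -0.15 to -0.91, at every level.

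Intervals for counting error were computed for the members alone, which were chosen with the difference between the libraries in view. The reads behind a member are the smallest whole numbers that its RPKM values allow, so its interval is the widest they allow. Without a pseudocount, 95% exact (Clopper-Pearson) intervals of the ratio of reads were rescaled by library size. They lay below 0 for all 47 members, with a median half-width of 0.10 on the log2 scale. No such interval was computed for other genes, and 55.9% of detected genes were lower in replicate 2. The count of intervals below 0 therefore does not set the members apart. Reads without molecular identifiers are not independent molecules, so the intervals hold for counting error alone and not for the spread between cultures.

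**Figure D3:**
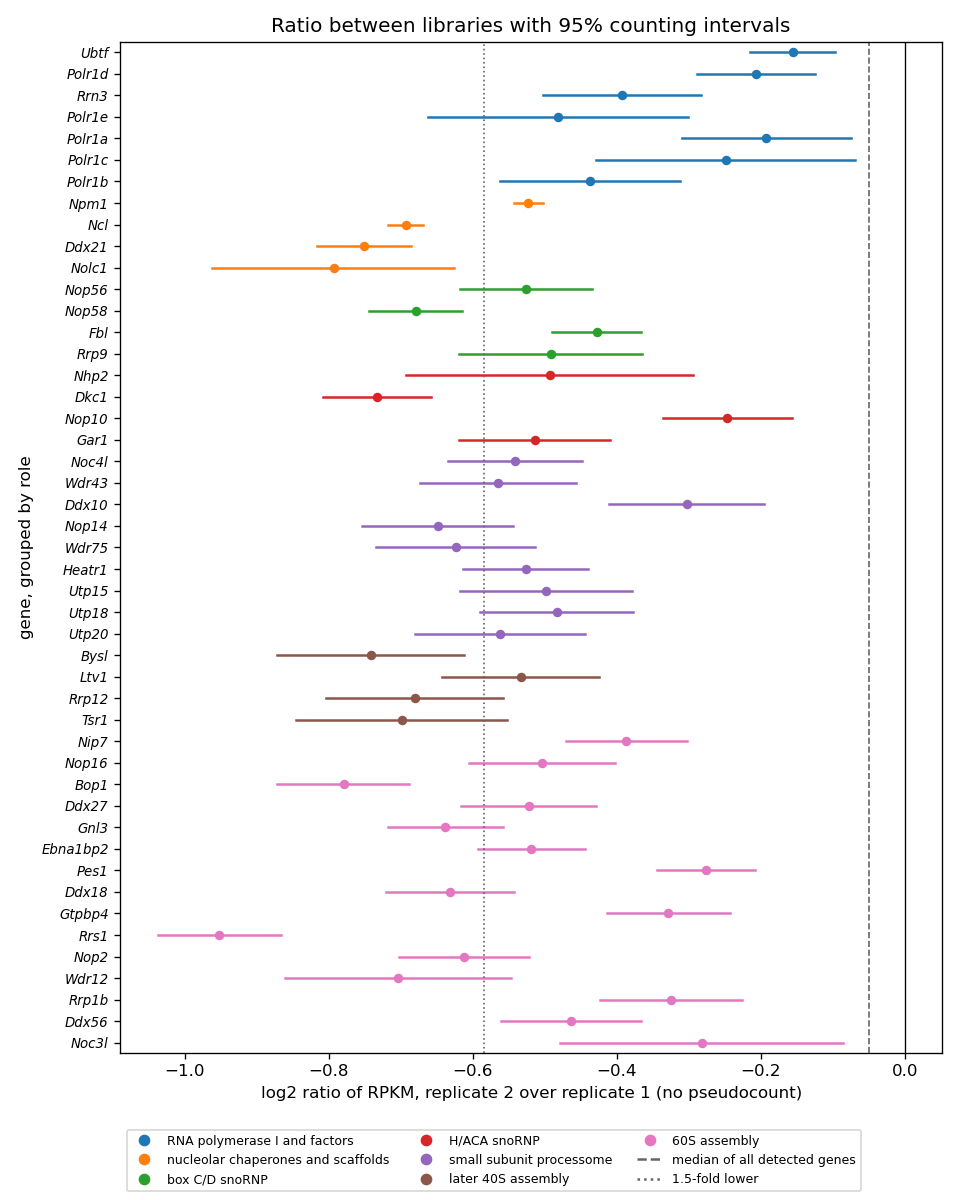
Log2 ratio of RPKM in replicate 2 over replicate 1 without a pseudocount for each member, with 95% intervals for counting error, grouped by role as in the plot of levels. All intervals lie left of 0 (solid line). The dashed line is the median of all detected genes, computed with 1 RPKM added, unlike the plotted ratios. The intervals of Polr1c and Polr1a reach nearest to it, and that of Rrs1 lies farthest beyond the 1.5-fold line (dotted).

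RNA polymerase I and its factors had the smallest median difference between the libraries among the role groups. Ubtf, which encodes the factor that holds ribosomal DNA in an open form, stood at 110 and 98.6 RPKM and led the group. Rrn3 stood at 24.6 and 18.7 RPKM. Among the subunit genes, Polr1a and Polr1b, whose products form the catalytic core, stood at 14.1 and 12.4 RPKM and at 4.92 and 3.63. Polr1c and Polr1d, whose products also serve RNA polymerase III, stood at 6.25 and 5.26 RPKM and at 43.7 and 37.9. Polr1e stood at 15.9 and 11.4 RPKM. The median log2 ratio of the 7 genes was -0.21 and none passed 1.5-fold, whereas the other 40 members had a median of -0.52 with 16 past it. The ranges overlapped, from -0.15 to -0.45 in the polymerase group and from -0.23 to -0.91 in the rest, and 3 of the 7 (Polr1b, Polr1e and Rrn3) lay among the lowest 25% of detected genes, as did 38 of the 40. In level, as a difference of medians of log2(RPKM + 1), the polymerase group minus the other members was -0.81 ± 0.17 (SD, n = 2), with -0.93 in replicate 1 and -0.69 in replicate 2.

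Further genes of RNA polymerase I, listed apart from the members, had ratios on both sides of 0. Of 9 such genes, Taf1a and Ubtfl1 were listed at 0 in both libraries, and the other 7 had a median log2 ratio of -0.15 with 5 lower in replicate 2. Znrd1, a subunit gene, stood at 37.9 and 34.2 RPKM, and Ttf1, for the termination factor, at 31.4 and 30.7. Twistnb, a subunit gene, stood at 17.7 and 13.4 RPKM (-0.37), and Taf1d and Taf1b, for subunits of the promoter factor SL1, at 31.0 and 23.9 (-0.36) and at 13.1 and 10.8 (-0.26). Twistnb and Taf1d lay among the lowest 25% of detected genes. Taf1c, at 6.84 and 7.09 RPKM, and Cd3eap, at 13.1 and 14.1, were the exceptions, and 1 exception was left with the 10 highest genes of the table kept out of the scaling. The 5 subunits that RNA polymerases I, II and III share had a median of -0.15, and Polr2l and Polr2h, the highest of them, stood at 142 and 103 RPKM and at 58.0 and 52.0. The 7 RNA polymerase II subunits had a median of -0.27 with none past 1.5-fold. Polr2a and Polr2g led them at 105 and 95.2 RPKM and at 96.3 and 73.2, and Polr2d, at 0.06, was the one not lower. RNA polymerase III subunits and factors had a median of -0.13, and none of 22 passed 1.5-fold with 1 RPKM added. Without it Polr3gl, at 4.08 and 6.27 RPKM, was 1.54-fold higher in replicate 2. Maf1, the repressor of that polymerase, stood at 40.9 and 50.5 RPKM, and Brf1, Polr3gl, Gtf3c1 and Gtf3c3 were the other genes not lower in replicate 2 (3 genes were higher with the 10 highest genes left out of the scaling).

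The nucleolar chaperones and scaffold proteins had the highest median level of the role groups and the largest median difference, with a log2 ratio of -0.72. Npm1, the histone and ribosome chaperone nucleophosmin, stood at 1182 and 823 RPKM and ranked 83 among all genes by mean. Ncl, for nucleolin, which binds the ribosomal RNA precursor, stood at 251 and 155 RPKM. Ddx21, a helicase of nucleolar transcription and processing, stood at 103 and 61.3 RPKM, and Nolc1, a chaperone of snoRNPs, at 35.3 and 20.4. The log2 ratios were -0.52 for Npm1, -0.69 for Ncl, -0.74 for Ddx21 and -0.76 for Nolc1. The last 3 were thus past 1.5-fold. The counting interval of Npm1 (-0.54 to -0.50) did not meet that of Ncl (-0.72 to -0.67), which holds for counting error alone. In level the group exceeded the other members by 2.47 ± 0.15 (SD, n = 2). Npm1 has processed copies elsewhere in the genome that can share reads, so its value is less certain than those of the others.

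The box C/D snoRNP, which carries the methyltransferase of ribosomal RNA, was led by its scaffold genes. Nop56 stood at 139 and 96.9 RPKM and Nop58 at 66.2 and 41.3. Fbl, which encodes the methyltransferase fibrillarin, stood at 31.9 and 23.7 RPKM, and Rrp9, a protein of the U3 particle, at 21.3 and 15.1. Nop58 had the lowest log2 ratio of the group, -0.67, and Fbl the highest, -0.41.

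The H/ACA snoRNP, which converts uridine to pseudouridine, had uneven values among its 4 core genes. Nhp2 stood at 88.2 and 62.7 RPKM, Dkc1, for the pseudouridine synthase dyskerin, at 39.4 and 23.7, Nop10 at 17.7 and 14.9, and Gar1 at 10.4 and 7.25. The ratio differed within the particle: Dkc1 stood at -0.71 and Nop10 at -0.23 on the log2 scale. Their counting intervals without a pseudocount, -0.81 to -0.66 and -0.34 to -0.16, did not overlap, which holds for counting error alone. Exons of Dkc1 overlap those of Mpp1 on the opposite strand (173 and 107 RPKM, itself lower in replicate 2), whose part in the Dkc1 ratio was not tested. In level, box C/D genes exceeded H/ACA genes by 0.74 ± 0.05 (SD, n = 2) as deposited. With the longest annotated transcript as the length of Fbl, Gar1 and Nop10, whose lengths are in doubt, the difference was 0.17 ± 0.12, within 2 SD, so the order of these groups is not settled.

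All 9 genes of the small subunit processome were lower in replicate 2, with a median log2 ratio of -0.51. Heatr1, Utp15, Wdr43 and Wdr75, whose products belong to the subcomplex that joins the precursor first, stood at 20.8 and 14.5 RPKM, 19.5 and 13.8, 30.6 and 20.7, and 22.3 and 14.5. Their log2 ratios lay between -0.47 and -0.59. Utp18 stood at 14.8 and 10.6 RPKM, and Utp20, a large scaffold protein, at 12.1 and 8.20. The partners Nop14 and Noc4l stood at 26.1 and 16.7 RPKM and at 41.2 and 28.3, and the helicase gene Ddx10 at 23.8 and 19.3. All 9 lay among the lowest 25% of log2 ratios, Ddx10 nearest to the edge at -0.29. Of the 9, Wdr75 and Nop14 passed 1.5-fold.

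The 4 genes of later 40S assembly had a median log2 ratio of -0.62. Bysl (bystin) stood at 27.4 and 16.4 RPKM, Ltv1, a late assembly factor, at 17.9 and 12.4, Rrp12, a factor of subunit export, at 17.0 and 10.6, and Tsr1, a GTPase-like factor, at 8.77 and 5.41. Their log2 ratios were -0.71, -0.50, -0.63 and -0.61, so that 3 of 4 passed 1.5-fold. In level this group minus the processome was -0.33 ± 0.02 (SD, n = 2), and the processome minus the 60S group was -0.64 ± 0.08.

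The 15 genes of 60S assembly held both the largest difference of all members and several small ones. Rrs1, which helps to bring 5S RNA into the large subunit, stood at 35.0 and 18.1 RPKM, or 1.93-fold lower in replicate 2 without a pseudocount, with a counting interval of -1.04 to -0.87 on the log2 scale. Bop1, Wdr12 and Pes1 encode the 3 subunits of 1 complex, PeBoW, yet their ratios were unequal. Bop1 stood at 71.4 and 41.6 RPKM (-0.77), Wdr12 at 20.9 and 12.8 (-0.66) and Pes1 at 34.0 and 28.1 (-0.27). The counting interval of Pes1, -0.34 to -0.21, met neither that of Bop1, -0.87 to -0.69, nor that of Wdr12, -0.86 to -0.55. These intervals hold for counting error alone, and with 1 library on each side a difference between the genes was not tested. Exons of Bop1 overlap those of Mroh1 on the opposite strand (35.8 and 31.1 RPKM), whose part in the Bop1 ratio was not tested. Gnl3, for the GTPase nucleostemin, stood at 47.2 and 30.3 RPKM, the helicase gene Ddx18 at 33.3 and 21.5, and Nop2, for a methyltransferase of ribosomal RNA, at 31.8 and 20.8. These 3 also passed 1.5-fold.

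The remaining 60S genes stayed under that fold. Nip7, at 111 and 85.3 RPKM, and Nop16, at 88.7 and 62.6, were the highest of the group, with log2 ratios of -0.38 and -0.50. The helicase genes Ddx27 and Ddx56 stood at 46.5 and 32.4 RPKM and at 11.6 and 8.41, and Ebna1bp2, an assembly scaffold, at 41.1 and 28.7. Ratios nearer to 0 were found for the GTPase gene Gtpbp4, at 30.3 and 24.2 RPKM (-0.32), for Rrp1b, at 14.9 and 11.9 (-0.30), and for Noc3l, at 9.90 and 8.14 (-0.25).

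Other assembly factors, listed apart from the members, were lower in replicate 2 as well, by less at the median. Of 44 further 40S factors 43 were lower, with a median log2 ratio of -0.38 and 7 past 1.5-fold. Among these, Cirh1a, at 25.9 and 12.5 RPKM, and Wdr46, at 44.6 and 21.9, both stood at -0.99, below every member. Of 48 further 60S factors 46 were lower, with a median of -0.37 and 8 past 1.5-fold. Sbno1, whose part in 40S assembly was not checked here, led the first list at 103 and 88.9 RPKM. Emg1, a methyltransferase of 18S RNA, followed at 93.3 and 65.6. Rsl1d1 and Eif6, which keeps the subunits apart, led the other at 162 and 114 RPKM and at 77.5 and 67.4. The 60S list is broad: it also holds Pinx1 and the snoRNP assembly factors Naf1, Shq1, Nufip1, Znhit3 and Znhit6. Znhit6 (-0.59) and Pinx1 (-0.63) were among its genes past 1.5-fold. Rcl1, Nsa2 and Gltscr2 were the factors higher in replicate 2, with log2 ratios of 0.05, 0.02 and 0.37. Scaling the libraries otherwise left 42 or 43 of the 44 and 46 or 47 of the 48 lower. The RNA exosome, which trims precursors from their 3′ end, had 13 of 14 genes lower with a median of -0.35, and Mphosph6, at 0.07, was the other. Exosc8, a core subunit, stood at 102 and 85.8 RPKM and the helicase gene Skiv2l2 at 73.5 and 47.2, and Dis3, the nuclease, Exosc1 and Skiv2l2 were past 1.5-fold lower. In level the members exceeded the further 40S factors by 0.57 ± 0.17 (SD, n = 2), more than 2 SD, while their difference from the further 60S factors, 0.29 ± 0.23, and from the exosome, -0.31 ± 0.23, stayed within 2 SD. With means in place of medians the difference from the 60S factors was 0.54 ± 0.09, beyond 2 SD, and that from the exosome -0.11 ± 0.08. Replicate 1 alone gave 0.45 and -0.15 for these differences of medians, and replicate 2 alone 0.13 and -0.47.

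Cytosolic and mitochondrial ribosomal protein genes differed in direction. Of 75 detected cytosolic ribosomal protein genes, 61 were higher in replicate 2 and 14 lower, with a median log2 ratio of 0.16. Rps3a1 stood at 4659 and 5312 RPKM and Rps2 at 4988 and 4461. Rpl30, at 4.61 and 2.40 RPKM (-0.72), was the gene past 1.5-fold, far below the list's medians of 1040 and 1167. Rpl34, at 12.0 and 8.75 RPKM, and Rps27, at 2.93 and 2.54, were low as well, and Rpl26, at 0.06 and 0, was not detected. Why these genes were low was not tested, so their values are less certain. With the 10 highest genes of the table left out of the scaling, 56 were higher and the median was 0.11. Mitochondrial ribosomal protein genes were mostly lower, 47 of 49, with a median of -0.39. Mrps15 stood at 133 and 103 RPKM and Mrpl18 at 127 and 78.5, and Mrpl10 and Mrpl14 were the exceptions at 0.04 and 0.12 (46 or 48 were lower under other scalings). In level, the members minus cytosolic ribosomal proteins was -5.49 ± 0.60 (SD, n = 2), minus mitochondrial ones -0.54 ± 0.23 and minus RNA polymerase III genes 1.22 ± 0.25. Against RNA polymerase II subunits (0.14 ± 0.25) and all detected genes (0.82 ± 0.43) the difference stayed within 2 SD. The former had opposite signs in the libraries, 0.31 in replicate 1 and -0.04 in replicate 2. The latter was 1.05 without replicate 2 and 0.54 without replicate 1, with detected genes chosen in the remaining library. No difference in ratio between lists was tested, since each list has 1 value.

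**Figure D4:**
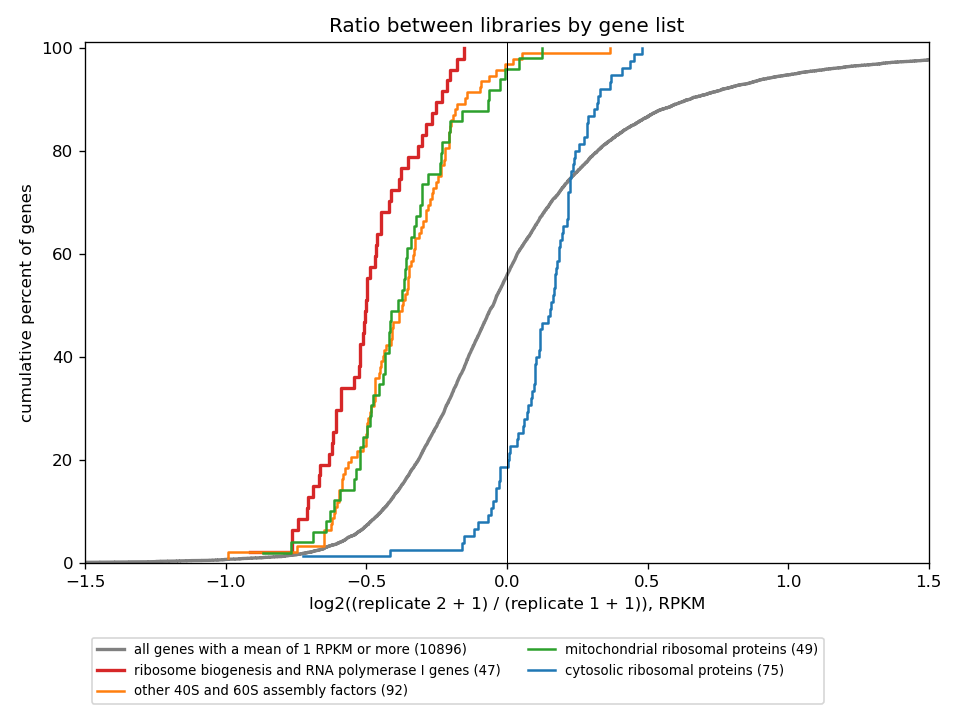
Cumulative percent of genes against the log2 ratio of replicate 2 over replicate 1 with 1 RPKM added, for the 47 members (red), 92 other assembly factors (orange), 49 mitochondrial (green) and 75 cytosolic (blue) ribosomal protein genes and all 10896 genes (grey). The red curve lies left of all others over most of its height and reaches 100% below 0, while most of the blue curve lies right of 0.

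Genes of the MYC network were mostly not lower in replicate 2. Myc stood at 75.8 and 91.5 RPKM and its partner Max at 19.0 and 21.1, so both were higher there, and both by less than 1.5-fold. Of 11 detected genes of the network, 9 were higher in replicate 2 (8 with the 10 highest genes left out of the scaling) and Mlx and Mycn lower, with a median log2 ratio of 0.19. The highest were the antagonist genes Mxd1, at 101.2 and 116 RPKM, and Mxi1, at 89.8 and 112. Further antagonist genes, Mxd3, Mxd4 and Mnt, were also among those higher, with log2 ratios of 0.19, 0.26 and 0.19. The count and the median thus mix genes of opposite action and do not give the direction of MYC activity. Members with CACGTG in their promoter window had a median log2 ratio of -0.51 (8 genes) and those with a window but no match -0.49 (34 genes). Free ribosomal proteins Rpl5 and Rpl11 carry 5S RNA and restrain MDM2, the inhibitor of p53, when assembly fails. Rpl5 and Rpl11 stood at 791 and 851 RPKM and at 1189 and 1238, Mdm2 at 72.7 and 73.0, and Trp53 at 49.4 and 35.3. Cdkn1a, a target of p53, stood at 52.0 and 105 RPKM and Cdkn2a at 9.08 and 17.4, both past 1.5-fold higher in replicate 2.

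Several members also carry snoRNA genes within their bounds. In GENCODE vM21, 7 of 47 members (14.9%) contained snoRNA genes on their own strand, 21 in all, against 1.98% of 9978 detected protein-coding genes. These were Nop56 (5 snoRNA genes), Nop58 (4), Ncl, Wdr43 and Gnl3 (3 each), Tsr1 (2) and Dkc1 (1). Their median log2 ratio was -0.62, that of the other members -0.48 and that of all 198 coding host genes -0.18. Of 11 detected genes on a list of non-coding hosts, 9 were lower in replicate 2, with a median of -0.48. Snhg5 stood at 152 and 102 RPKM and Snhg8 at 65.6 and 61.4. Dancr, Snhg12 and Snhg3 were past 1.5-fold lower, and Snhg7 and Snhg11 were the genes not lower.

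The libraries also differed in cell type markers and in proliferation genes. All 9 detected monocyte and macrophage markers were higher in replicate 2, and the whole list of 10 summed to 1321 RPKM in replicate 1 and 3589 in replicate 2. Lyz2 (lysozyme) stood at 442 and 1853 RPKM and F13a1, a coagulation factor gene, at 25.9 and 262. The 8 mast cell markers summed to 39.6 and 802 RPKM, with all 6 detected ones higher in replicate 2, and the protease genes Mcpt2, at 4.97 and 402 RPKM, and Cma1, at 3.55 and 211, the highest. Of 10 markers of myeloid progenitors and granulocytes, 7 were lower in replicate 2, the granule genes Mpo, Elane, Prtn3 and Ctsg among them, and the list summed to 5720 and 4401 RPKM. The 3 higher ones were the progenitor genes Kit and Cd34, the latter at 14.5 and 19.5 RPKM, and the transcription factor gene Cebpa, at 61.3 and 66.3. All 18 proliferation genes were lower in replicate 2, with a median log2 ratio of -0.48 and sums of 1742 and 1296 RPKM. Rrm2 stood at 409 and 277 RPKM and Mki67 at 164 and 140, and Tyms, Rrm1 and Mcm3 were past 1.5-fold lower. The part of these differences in the members' ratios was not tested. In bulk RNA, fewer cells of a type and less RNA per cell cannot be told apart.

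Levels of different genes depend on the lengths behind the RPKM, not given in the sources used here. For 7 members, the smallest length that gave whole reads was more than 1.5 times the longest GENCODE vM21 transcript: Gar1 (5951 against 1271 bp), Nop10 (4259 against 1109), Ddx56, Polr1c, Fbl, Polr1b and Rrs1. With the longest transcript in place of that length, Gar1 would stand at 48.5 and 34.0 RPKM, Nop10 at 68.1 and 57.4 and Fbl at 71.1 and 52.9. Their order against other genes is therefore uncertain, whereas a ratio between libraries without a pseudocount does not depend on length. With 1 RPKM added it does, mostly for low genes: the log2 ratio of Polr1b was -0.35 with it and -0.44 without. Exons of 11 members overlapped those of another gene in the table on the opposite strand, among them Dkc1 with Mpp1 (173 and 107 RPKM) and Bysl with Ccnd3 (197 and 183). The strand setting of the counting is not given, so reads of such pairs may not be separable.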

How the data were processed

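RNA-seq was analysed for 2 libraries of 1 group, assigned by column names that match the sample titles. The authors deposited RPKM values. Per the submitters' processing notes, reads were handled with Trimmomatic 0.32, TopHat2, HTSeq and edgeR on build mm9; for settings, annotation, strand and lengths, nothing is given in the sources used here. Of 24015 rows, 27 named as dates were left out. With 2 libraries no p-value was computed.

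Python 3.11.15, numpy 2.4.6, pandas 2.3.3 and scipy 1.17.1 were used. Ratios were log2 of RPKM + 1 over genes whose RPKM averaged 1 or more. Groups were compared by differences of medians of log2(RPKM + 1), called beyond the spread at over 2 SD with the same sign in both libraries. Effective library sizes came from 474 genes with equal reads (ratio 0.962, tolerance 1e-05) and 68 of 1362 single-length GENCODE vM21 genes. Members and lists were chosen with earlier results of these data known; the rule for naming took all members, the 2 highest genes of each other list, any past 2-fold, genes behind counts of 5 or fewer, Myc, Max, Mki67 and the markers; of genes past 2-fold, only marker genes, the highest are given. Genes outside this rule were also named where their values limit a statement about a list. The ratio step was tested on simulated reads with planted 2-fold changes and counting error alone. That test covers the computation and not the spread between cultures or a difference in cell types. Protein features, planned at the start, were not analysed here.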

Additional observations from a re-analysis of the deposited data

How the results depend on the processing

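Alternatives were another pseudocount (0.1), minimum (none or 5 RPKM), scaling, mean in place of median and leaving out a library; corrections for GC content, transcript length or level, leaving out the highest member and the background of expressed genes for promoters were chosen after seeing the data. All members tested stayed below 0 in each (47, or 46 with a minimum of 5 RPKM, which drops Polr1b), and the median log2 ratio ran from -0.39 to -0.55; of 282 single-gene values 13 moved by over 1.5 times, and Ubtf came nearest to 0, at -0.01, with level subtracted. The count past 1.5-fold, 16, became 0 at 2-fold, 9 with GC content subtracted, 9 with transcript length and 7 with level; the background share fell too, to 3.07%, 3.08% and 3.28%. With means, members minus further 60S factors was 0.54 (now beyond 2 SD), minus the exosome -0.11, minus RNA polymerase II subunits -0.23, minus mitochondrial ribosomal proteins -0.20, and later 40S minus processome -0.46 (-0.35 with a pseudocount of 0.1). With a minimum of 5 RPKM, members minus RNA polymerase III genes was 0.89, minus all genes 0.20 (4.17 with no minimum), and RNA polymerase I minus other members -0.52. With the longest transcript as the length of the 7 members in doubt, another setting chosen after seeing the data, box C/D minus H/ACA was 0.17 (no longer beyond 2 SD), processome minus 60S -0.79, RNA polymerase I minus other members -0.99 and chaperones minus other members 2.27. Promoter shares before the start were 6% for CACGTG, 6% for TCTCGCGA, 12% for CCGGAAGT and 0% for CGCATGCG. The cause of these shifts was not tested, beyond the genes each setting leaves out. No paired analysis was possible because the labels give 1 group. A ratio between libraries cannot be had without either library, and with 2 libraries the spread itself is poorly known.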
